A study of Mus musculus with 9 samples.

Results

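Heat shock chaperones of the cytosol and mitochondria were followed in MyC-CaP cells, an epithelial-like line grown from a mouse prostate tumor driven by MYC, through a time course with recombinant NRG1, which binds the receptor HER3. The set was chosen by name and holds 10 of the 15552 protein-coding genes in the count table. These are Hspa1a, Hspa1b, Hspa8, Hsp90aa1, Hsp90ab1, Hsph1, Dnajb1, Hspb1, Hspd1 and Hspe1, and all 10 were among the 11373 genes with enough counts to be tested. RNA was sequenced in 9 libraries, 3 labelled as biological replicates at each of 0, 12 and 24 h. Every library carries the label of NRG1 treatment at 15 ng/mL, the 0 h libraries included, and all cells had spent 6 to 12 h in medium without serum or calcium before NRG1 was added. Cells kept in that medium for 12 or 24 h without NRG1 were not analysed here, so time in the medium and time with NRG1 cannot be told apart. All libraries come from 1 cell line, and since the study describes triplicate wells, the p-values measure the spread between wells.

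Chaperones bind proteins that are unfolded or only partly folded. In the cytosol, HSP70 proteins hold short exposed stretches of a client and release them in cycles of ATP use. J-domain proteins deliver clients to HSP70 and speed ATP hydrolysis, HSP110 proteins exchange the nucleotide, and HSP90 takes over clients that include many kinases. Small heat shock proteins hold unfolded clients without ATP, and in mitochondria HSP60 and its lid HSP10 form a closed chamber in which proteins fold. Several of these genes are known targets of the heat shock factor HSF1, which binds inverted GAA units called heat shock elements.

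Promoter sequence from RefSeq (GRCm38.p6) was found for 7 of the 10 genes, all but Hspa8, Hsp90aa1 and Hsp90ab1. The search covered windows from 250 bases before to 50 bases after each start site. A heat shock element of 2 units was taken as GAANNTTC or TTCNNGAA, which together cover both strands, and longer elements continue the same alternation, so that they contain the shorter ones. The 2-unit form was found in 6 of the 7 genes and in 17.0% of the 27025 genes with a window. Elements of 3 units were found in Hsph1, Hspd1 and Hspe1, against 0.662% of all genes. Elements of 4 units were found in 8 genes, of which Hspd1 and Hspe1 are a pair that starts in opposite directions from the same stretch of DNA, so that their windows hold a single element. CCAAT, read on both strands, was found in 5 of the 7 genes and in 41.1% of all genes, and TATAAA, also on both strands, in 0 of the 7 and in 15.7%. The 250 bases before the start site are shown for 3 genes with their heat shock elements in capitals, read 5′ to 3′ on the strand of the gene. Hspa1b, on the minus strand at chr17:34959239-34959488, is shown as the inducible HSP70 whose mRNA passed the test at 12 h. Hspe1, on the plus strand at chr1:55087898-55088147, is shown for its 4-unit element, and Dnajb1, on the plus strand at chr8:83607925-83608174, as the gene that rose most and had no match to the element.
Hspa1b: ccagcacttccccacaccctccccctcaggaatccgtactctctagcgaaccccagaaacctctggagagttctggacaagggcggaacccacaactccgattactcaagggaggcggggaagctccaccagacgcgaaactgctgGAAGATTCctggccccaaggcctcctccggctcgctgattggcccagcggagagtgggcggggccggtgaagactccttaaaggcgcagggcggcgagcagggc
Hspe1: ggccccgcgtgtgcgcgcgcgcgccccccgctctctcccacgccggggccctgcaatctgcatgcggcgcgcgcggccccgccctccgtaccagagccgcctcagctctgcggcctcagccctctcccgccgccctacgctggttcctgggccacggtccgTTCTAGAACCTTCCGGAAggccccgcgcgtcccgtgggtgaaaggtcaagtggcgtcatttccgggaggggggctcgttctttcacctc
Dnajb1: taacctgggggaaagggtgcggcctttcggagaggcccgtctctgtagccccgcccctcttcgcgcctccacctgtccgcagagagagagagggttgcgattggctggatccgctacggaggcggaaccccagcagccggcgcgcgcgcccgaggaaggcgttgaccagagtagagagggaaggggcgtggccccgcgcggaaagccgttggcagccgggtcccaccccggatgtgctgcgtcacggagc
The Hspa1b element began at position -104 from the start site and that of Hspe1 at -89. The windows of Hspa1a and Hspa1b differed at 4 of 300 positions and held the same element at the same place. A match is a run of letters and was not tested as a binding site.

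Total counts ran from 28467089 to 39239760 per library. Of the epithelial markers, Epcam reached at most 3 counts and Cdh1 at most 4 in any library, while Krt8 stood at 18.2, 22.3 and 23.1 CPM (counts scaled to a common library size with TMM factors) and Krt19 at 98.7, 131 and 102 CPM at 0, 12 and 24 h. Krt18 was near 0 at 0.253, 0.317 and 0.378 CPM, and Cldn4 was at 3.67, 2.39 and 2.77 CPM (log2 -0.58 ± 0.27 at 12 h, adjusted p = 0.132). The prostate gene Hoxb13 was at 84.3, 102 and 90.3 CPM, whereas the secretory gene Pbsn had at most 2 counts. By edgeR's test, Krt8, Krt19 and Hoxb13 were higher at 12 h against 0 h (adjusted p = 0.0169, 0.0134 and 0.000168). Krt8 was also higher at 24 h against 0 h (adjusted p = 0.0107). Markers of immune and endothelial cells reached at most 8 and 10 counts, and Col1a1 at most 12, with Pdgfra at 16.8 CPM at 0 h. In bulk RNA, fewer cells with an mRNA and less mRNA per cell cannot be told apart.

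The changes in the 10 chaperones were small. By edgeR's quasi-likelihood test with Benjamini-Hochberg adjustment over all genes tested, where passing means an adjusted p of at most 0.05, Dnajb1 and Hsp90aa1 rose at 12 h against 0 h and Hspa1b fell. The share of all genes tested was 13.6% higher and 11.9% lower. At 24 h against 0 h, Dnajb1 rose and Hsp90ab1 fell, against 9.67% and 7.76% of all genes. Between 12 and 24 h, Dnajb1 and Hsp90aa1 fell and 0 chaperones rose, against 3.06% lower and 1.97% higher among all genes. None of the 10 changed by 1.5-fold in any comparison, which 2.29%, 2.27% and 0.29% of genes did while also passing the test. Tested for any difference among the 3 time points, 4 of the 10 passed (Dnajb1, Hsp90aa1, Hspa1b and Hsp90ab1), against 27.4% of all genes. Hsp90ab1 lost that call when any single library of 0 h or 24 h was left out. Hspa1b lost it without 12 h replicate 1 or 3. The median log2 fold change over the 10 genes was -0.0044 at 12 h and -0.016 at 24 h against 0 h, beside -0.0028 and -0.0065 over all genes tested.

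**Figure D1:**
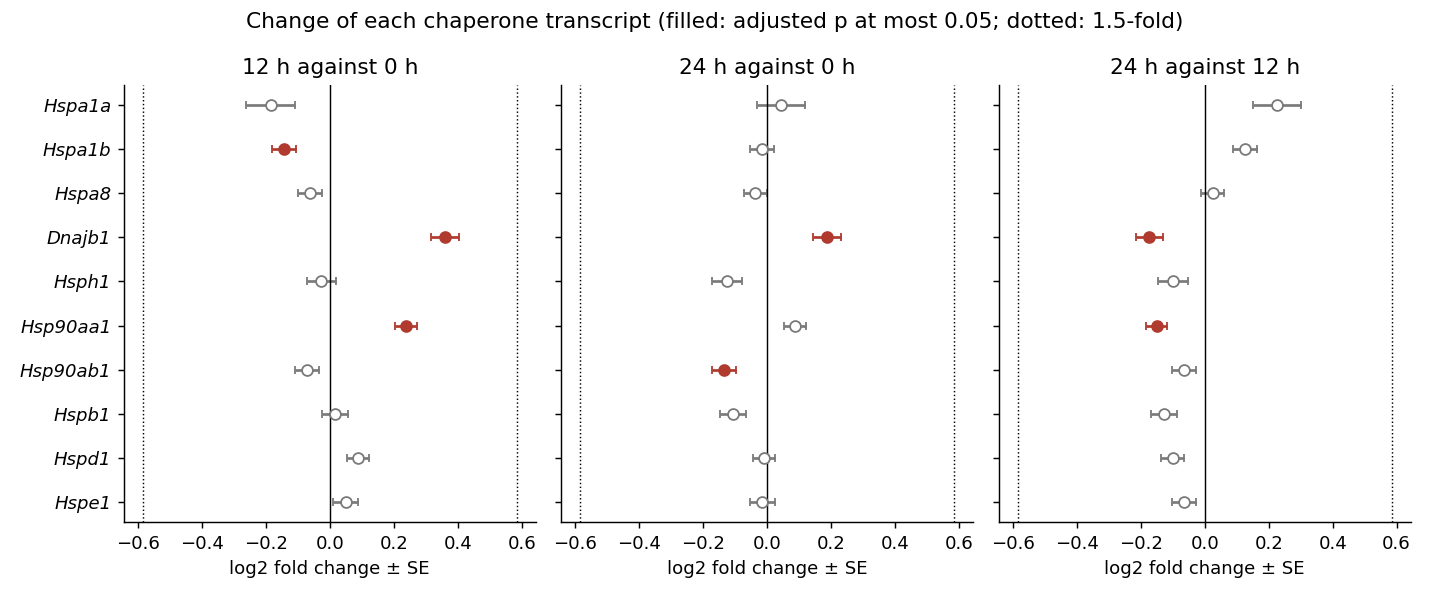
Log2 fold change of each of the 10 chaperone genes in the 3 comparisons, with its standard error as the bar. Dnajb1 stands highest at 12 h, at 0.36, and no gene reaches a 1.5-fold change in either direction.

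The 3 libraries of a time point did not overlap those at 0 h in 5 chaperones at 12 h, 3 higher (Dnajb1, Hsp90aa1 and Hspd1) and 2 lower (Hspa1a and Hspa1b). Such separation was seen in 19.9% of all genes in the higher direction and in 18.5% in the lower. At 24 h, 2 chaperones lay wholly above 0 h and 3 wholly below, beside 17.6% and 17.9% of all genes. From 12 to 24 h, 2 lay wholly above and 5 wholly below, beside 11.4% and 13.6%.

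The inducible HSP70 proteins are encoded by neighbouring, nearly identical genes on chromosome 17. Hspa1b (ENSMUSG00000090877.3, chr17:34956436-34959238) stood at 150.5, 149.0 and 152.8 CPM in the 0 h libraries, at 135, 142 and 132 CPM at 12 h, and at 151, 147 and 150.0 CPM at 24 h. All 12 h libraries were below all others. It fell by 0.14 ± 0.037 on the log2 scale at 12 h against 0 h (fold change with its SE, adjusted p = 0.00922), and its level fell by 9.42%. Without 0 h replicate 3 the change was -0.13 with an adjusted p of 0.0516. At 24 h against 0 h the change was -0.017 ± 0.037 (adjusted p = 0.809). Hspa1a (ENSMUSG00000091971.3, chr17:34969190-34972156) was the lower of the pair, at 19.9, 17.3 and 18.3 CPM at 0 h, 16.4, 17.1 and 15.2 CPM at 12 h and 20.1, 17.6 and 19.4 CPM at 24 h. Its 12 h libraries were again the lowest, and its log2 change at 12 h of -0.18 ± 0.076 had an adjusted p of 0.0859.

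Reads from this pair are hard to assign. Of all 150-base windows of Hspa1a and Hspa1b transcripts, 46.0% and 40.5% occur exactly in transcripts of another gene, mostly the other of the pair, and 19.0% of the Hspa1a exonic bases overlap Gm20481 on the opposite strand. How reads matching several genes were counted is not given in the sources used here. With both genes summed, the log2 change was -0.15 ± 0.038 at 12 h (adjusted p = 0.00834). Between 12 and 24 h it was 0.14 ± 0.038 (adjusted p = 0.0441), and for the genes alone the adjusted p was 0.0942 for Hspa1a and 0.0600 for Hspa1b. Hspa1b alone passed between 12 and 24 h under DESeq2 (adjusted p = 0.0405) and without 12 h replicate 2 (log2 0.16, adjusted p = 0.0311).

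Hspa8 (ENSMUSG00000015656.17, chr9:40800984-40810087) encodes the constitutive HSP70 of the cytosol. Its libraries stood at 1828, 1810 and 1749 CPM at 0 h, 1755, 1752 and 1653 CPM at 12 h and 1763, 1696 and 1793 CPM at 24 h. The 3 time points overlapped, and its log2 changes against 0 h were -0.062 ± 0.036 at 12 h and -0.037 ± 0.036 at 24 h (adjusted p = 0.235 and 0.551). Other genes' transcripts held 23.0% of its 150-base windows.

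**Figure D2:**
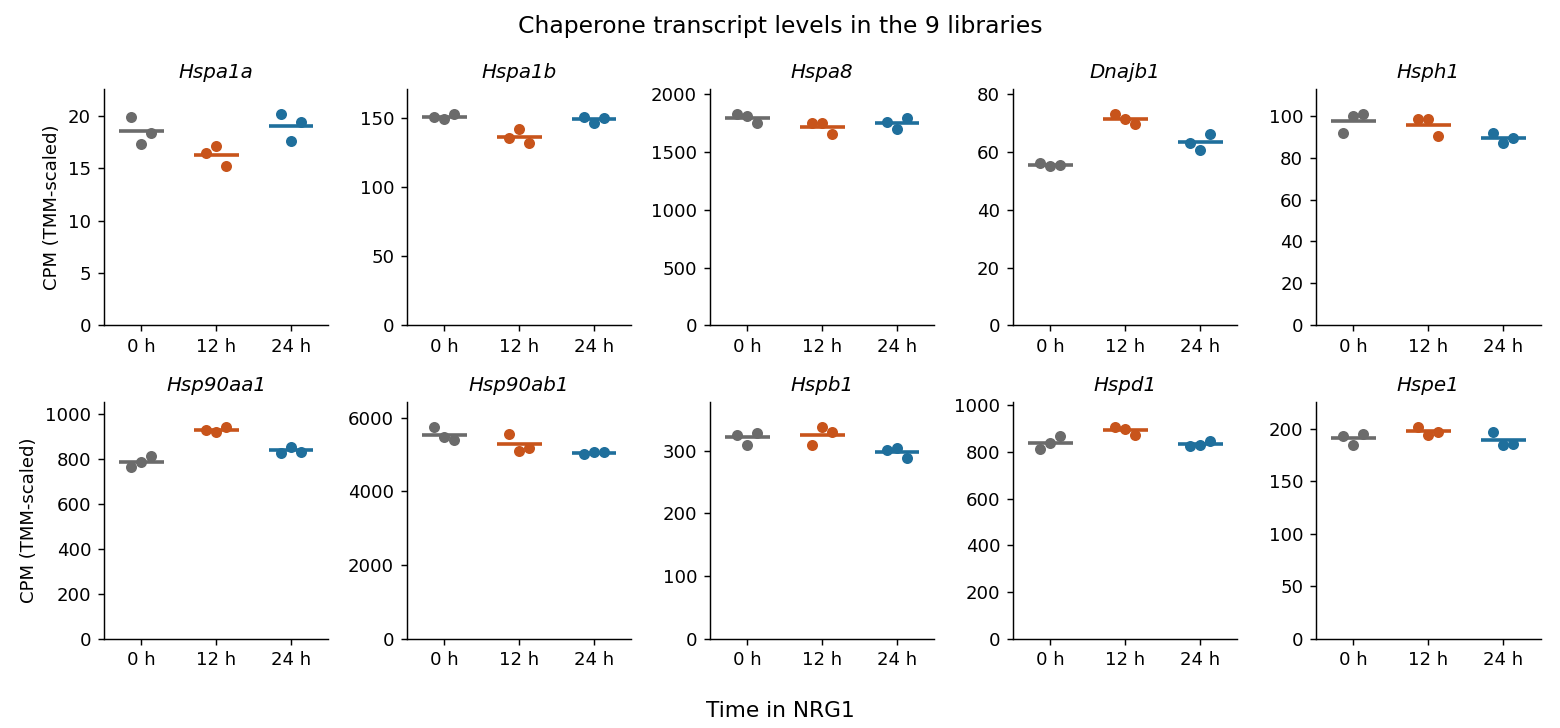
CPM of each of the 10 chaperone genes in every library at 0, 12 and 24 h, with points for libraries, a line for their mean, and axes that start at 0. The Dnajb1 and Hsp90aa1 libraries at 12 h lie above those at 0 h, and the Hspa1b libraries at 12 h lie below.

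Dnajb1 (ENSMUSG00000005483.10, chr8:83608193-83612653), the J-domain partner of inducible HSP70, stood at 56.1, 55.3 and 55.4 CPM at 0 h, at 73.0, 71.3 and 69.7 CPM at 12 h and at 62.9, 60.7 and 66.1 CPM at 24 h. The time points did not overlap, with 12 h highest and 24 h between. Dnajb1 rose by 28.4% at 12 h (log2 0.36 ± 0.043, adjusted p = 1.61e-05) and by 13.8% at 24 h (log2 0.19 ± 0.043, adjusted p = 0.00625). From 12 to 24 h it fell by 11.3% (adjusted p = 0.0269), a call that was lost without 12 h replicate 1 or 2 or 24 h replicate 1 or 2, where the log2 changes ran from -0.17 to -0.15. None of its 150-base windows occurs in another gene's transcripts.

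Hsph1 (ENSMUSG00000029657.15, chr5:149614287-149636376), the HSP110 exchange factor, stood at 91.6, 100.0 and 100.7 CPM at 0 h, 98.3, 98.2 and 90.5 CPM at 12 h and 91.5, 86.9 and 89.6 CPM at 24 h. The 24 h libraries lay just below those at 0 h. The log2 change was -0.13 ± 0.046 at 24 h (adjusted p = 0.0707), and without 0 h replicate 1 it was -0.17 with an adjusted p of 0.0239. It also passed without 12 h replicate 3 (adjusted p = 0.0395) and with no low-count filter (adjusted p = 0.0493).

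HSP90 of the cytosol is made from an inducible gene, Hsp90aa1 (ENSMUSG00000021270.13, chr12:110690605-110702728), and a constitutive one, Hsp90ab1 (ENSMUSG00000023944.14, chr17:45567775-45573271). Hsp90aa1 stood at 765, 786 and 811 CPM at 0 h, 929.9, 918 and 939 CPM at 12 h and 828, 853 and 830.0 CPM at 24 h. The 12 h libraries were above all others. It rose by 18.0% at 12 h (log2 0.24 ± 0.034, adjusted p = 7.45e-05), and at 24 h its log2 change was 0.088 ± 0.034 (adjusted p = 0.0862), which DESeq2 put at an adjusted p of 0.0487. Hsp90aa1 fell by 9.91% from 12 to 24 h (adjusted p = 0.0167), and that call was lost without 12 h replicate 1 or 24 h replicate 1 or 3, where the log2 changes ran from -0.15 to -0.14. Transcripts of other genes held 28.5% of its windows.

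Hsp90ab1 was the most abundant of the 10. It stood at 5737, 5481 and 5406 CPM at 0 h, 5557, 5091 and 5187 CPM at 12 h and 5027, 5061 and 5063 CPM at 24 h. The 24 h libraries were below all others, and the 12 h libraries overlapped those at 0 h. Hsp90ab1 fell by 8.86% at 24 h (log2 -0.13 ± 0.038, adjusted p = 0.0202). Without 24 h replicate 1, 2 or 3, that log2 change was -0.13 each time, with an adjusted p of 0.0824, 0.0906 and 0.0833. At 12 h the log2 change was -0.070 ± 0.038 (adjusted p = 0.189), and without 12 h replicate 1 it was -0.11 with an adjusted p of 0.0344.

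Hspb1 (ENSMUSG00000004951.10, chr5:135887919-135889563), a small heat shock protein, stood at 325, 309 and 329 CPM at 0 h, 309, 337 and 329.5 CPM at 12 h and 302, 305 and 288 CPM at 24 h. The 24 h libraries lay below the rest, with a log2 change of -0.11 ± 0.041 against 0 h (adjusted p = 0.0796). From 12 to 24 h the log2 change was -0.13 ± 0.041 (adjusted p = 0.0859), which passed with no low-count filter (adjusted p = 0.0473). Tested for any difference among the 3 time points, Hspb1 had an adjusted p of 0.0520. It passed that test under DESeq2, with no low-count filter, and without 0 h replicate 2 or 12 h replicate 1. The transcript of the pseudogene Hsp25-ps1 and others held 39.1% of its windows.

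The mitochondrial pair did not pass in any comparison. Hspd1 (ENSMUSG00000025980.14, chr1:55077835-55088243), which encodes HSP60, stood at 812, 839 and 869 CPM at 0 h, 905, 901 and 875 CPM at 12 h and 826, 828 and 846 CPM at 24 h. Its 12 h libraries were the highest, with a log2 change of 0.089 ± 0.035 (adjusted p = 0.0706). That change passed under DESeq2 (adjusted p = 0.0484) and without 0 h replicate 3 or 12 h replicate 3 (adjusted p = 0.0349 and 0.0355). Hspe1 (ENSMUSG00000073676.4, chr1:55088132-55091307), which encodes HSP10, stood at 193, 184 and 195 CPM at 0 h, 201, 194 and 197 CPM at 12 h and 196, 184 and 186 CPM at 24 h, and its time points overlapped. The pair overlaps by 112 exonic bases on opposite strands. Transcripts of other genes held 16.1% of the 150-base windows of Hspd1 and 6.64% of those of Hspe1.

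Per kilobase of exon, the 10 genes spanned a wide range and kept 1 order at all 3 time points. Exon length here joins the exons of all annotated transcripts of a gene and can exceed that of its mRNA. Sequence shared with other genes was not corrected for, so the order of genes with close values is uncertain. Hsp90ab1 led at 1848 ± 57.8 CPM per kb at 0 h (SD, n = 3), followed by Hspa8 at 417 ± 9.66, Hspd1 at 318 ± 10.9, Hspb1 at 312 ± 10.3, Hsp90aa1 at 200.3 ± 5.90 and Hspe1 at 129 ± 3.99 CPM per kb. Hspa1b, at 53.8 CPM per kb, Dnajb1, at 17.3, Hsph1, at 13.4, and Hspa1a, at 6.24, were the lowest. Of neighbours in this order, Hspd1 and Hspb1 at 0 h were the only ones whose libraries overlapped. Together the 10 genes took 0.981% ± 0.00557 of a library at 0 h (SD, n = 3). Their share was 0.961% ± 0.0256 in the 12 h libraries and 0.931% ± 0.00414 in the 24 h libraries. Hsp90ab1 alone took 0.547% to 0.568% at 0 h and 0.507% to 0.508% at 24 h, and so accounts for most of the difference in the summed share.

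**Figure D3:**
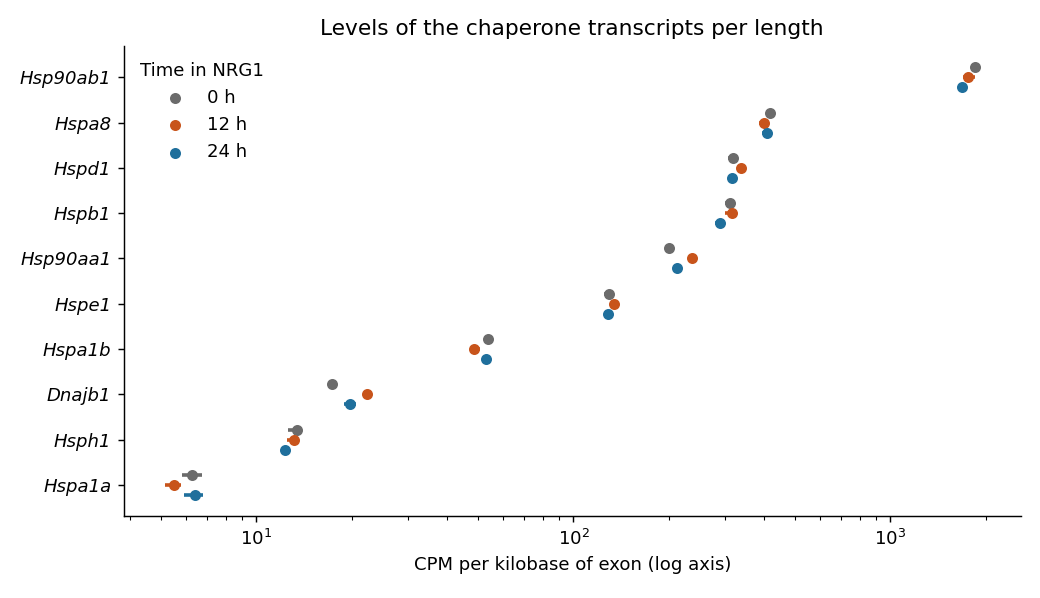
Level of the 10 chaperone genes in CPM per kilobase of exon at 0, 12 and 24 h on a log axis. Points are means, and bars run from the lowest to the highest of the 3 libraries. Hsp90ab1 lies highest and Hspa1a lowest at every time point.

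Ratios of raw counts within a library do not depend on scaling between libraries. The ratio of Hsp90aa1 to Hsp90ab1 was 0.142 ± 0.00841 in the 0 h libraries (SD, n = 3). It was 0.176 ± 0.00769 after 12 h and 0.166 ± 0.00247 after 24 h, which is 23.9% and 16.6% above 0 h. Dnajb1 to Hspa8 was 0.0310, 0.0415 and 0.0361, and Hspa1b to Hspa8 was 0.0840, 0.0794 and 0.0852. Hspd1 to Hspe1 was 4.41, 4.53 and 4.42, and Stip1 to Hsp90ab1, a co-chaperone against its partner, was 0.0509, 0.0627 and 0.0584. Hspa1a to Hspa1b was 0.123, 0.119 and 0.128. In exact two-sided permutation tests of the 6 ratios, 3 against 3 libraries cannot go below p = 0.1, so that no ratio could pass. At 12 h against 0 h, p was 0.1 for 4 of them (exact permutation, 0.18 after Benjamini-Hochberg adjustment over 18 tests), all but Hspd1 to Hspe1 and Hspa1a to Hspa1b, with p = 0.5 and 0.7 (exact permutation, adjusted p = 0.6 and 0.741). At 24 h against 0 h, p ran from 0.1 to 0.9, and between 12 and 24 h from 0.1 to 0.5 (exact permutation).

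**Figure D4:**
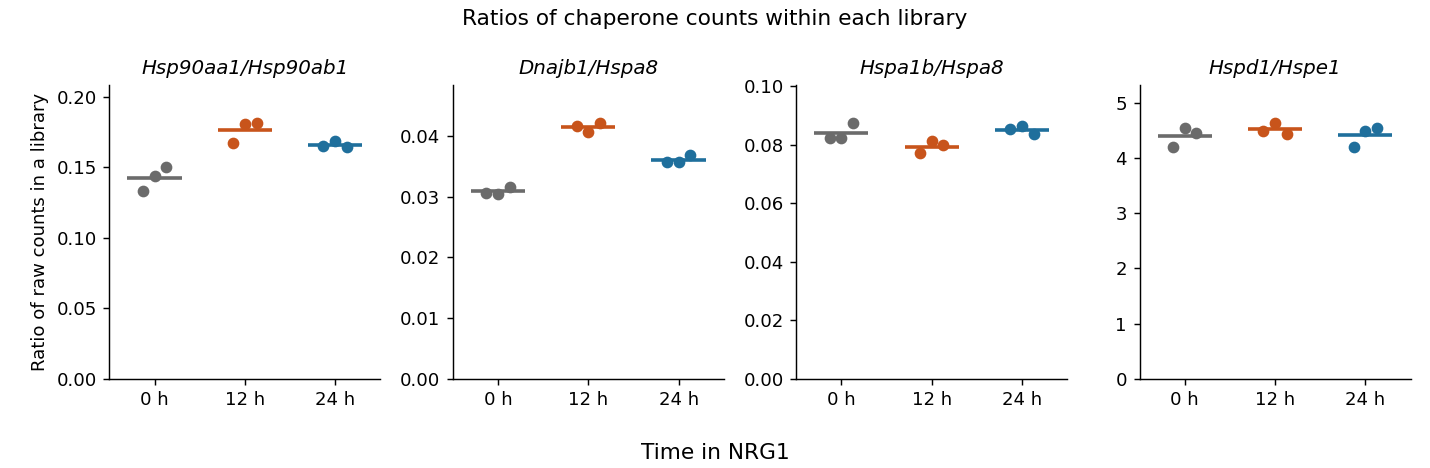
Ratios of raw counts of 4 chaperone pairs in each library at 0, 12 and 24 h, with points for libraries and a bar for the mean. The 3 ratios of Hsp90aa1 to Hsp90ab1 and of Dnajb1 to Hspa8 at 12 h lie above those at 0 h.

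Around the 10 genes, 96 partners in 8 role lists were examined, of which 84 were tested. At 12 h against 0 h, 18 passed as higher and 3 as lower, at 24 h 6 and 3, and from 12 to 24 h 0 and 9. Over all genes tested, the shares higher and lower were 13.6% and 11.9%, 9.67% and 7.76%, and 1.97% and 3.06% in the same order. The share of partners was above that of all genes for the rises at 12 h and the falls from 12 to 24 h, and below it for the others. Because the lists were chosen with earlier results of these data known and were not matched for level, these shares are a description only. None changed by 1.5-fold with a passing test. The median log2 change over the 84 was 0.044 at 12 h and -0.0018 at 24 h. The partners with the smallest p of each list were followed through 9 fits that each left out 1 library. Calls at 24 h against 0 h held in 8 fits for Hspa14, 6 for Hspa9 and 5 for Hspa13. They held in 4 for Dnajb6, 3 for Ptges3 and 2 for Pfdn6. Calls from 12 to 24 h held in 9 for Lonp1, 7 for Dnajc21, 5 for Stip1 and 4 each for Tcp1 and Bag2.

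The list of heat shock factors, which switch on these genes under stress, and their regulator Hsbp1 had 3 genes tested, and 0 passed in any comparison. Hsf1 stood at 57.6, 55.5 and 56.6 CPM at the 3 times, with an adjusted p of 0.477 at 12 h and 0.793 at 24 h against 0 h. Hsf2 stood at 10.6, 10.2 and 10.8 CPM at the 3 times and Hsbp1, a binding protein that restrains HSF1, at 80.1, 78.9 and 77.3 CPM. The HSP90 co-chaperones held 4 higher of 17 at 12 h (Stip1, Ptges3, Fkbp4 and Nudc) and 0 lower, beside 13.6% and 11.9% of all genes. Stip1, the HOP adaptor that joins HSP70 to HSP90, stood at 282, 331 and 295 CPM. Stip1 rose by 17.4% at 12 h (log2 0.23 ± 0.038, adjusted p = 0.000312). Ptges3, the p23 co-chaperone, stood at 171, 199 and 184 CPM and rose by 16.4% at 12 h (log2 0.22 ± 0.035, adjusted p = 0.000228). Chordc1, picked out because its promoter is among the 8 with a 4-unit heat shock element, stood at 54.9, 52.3 and 50.8 CPM, with an adjusted p of 0.269 at 12 h and 0.0891 at 24 h against 0 h.

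The J-domain list held 4 higher (Dnajc2, Dnajc5, Dnajc9 and Dnajc21) and 1 lower (Dnajb6) of 15 at 12 h, against 13.6% and 11.9% over all genes. Dnajc21, a J-domain protein of ribosome maturation, stood at 131, 160.2 and 137 CPM, with a log2 change at 12 h of 0.29 ± 0.043 (adjusted p = 0.000131). Dnajb6 was at 180.3, 158 and 163 CPM, a fall of 0.19 ± 0.039 on the log2 scale at 12 h (adjusted p = 0.00147). In the other HSP70 genes, 1 of 7 rose (Hspa14, 32.4 to 38.2 CPM, adjusted p = 0.0038) and 1 fell (Hspa13, 78.5 to 68.7 CPM, adjusted p = 0.00152) at 12 h. Of 9 HSP70 exchange factors, other HSP70 regulators and a ligase, 0 passed against 0 h. Bag2 stood at 50.2, 54.2 and 45.8 CPM and Bag5 at 45.5, 42.3 and 42.5 CPM. Bag2 passed as lower from 12 to 24 h (log2 -0.24 ± 0.056, adjusted p = 0.0192), a call lost without any 1 of 12 h replicates 1 and 2 or the 3 libraries at 24 h, with log2 changes from -0.25 to -0.21. Bag2 passed at 12 h against 0 h without 12 h replicate 3 (log2 0.17, adjusted p = 0.0289) and at 24 h against 0 h without 0 h replicate 3 (log2 -0.19, adjusted p = 0.0357). Among small heat shock proteins, 0 of 4 passed, with Hspb6 at 25.3, 26.4 and 28.5 CPM and Hspb7 at 0.591, 0.788 and 1.00 CPM. At 24 h against 0 h, Hspb6 had a log2 change of 0.18 ± 0.064 (adjusted p = 0.0647), which passed with the replicate block (adjusted p = 0.0426), with no low-count filter (adjusted p = 0.0372), without 0 h replicate 1 (log2 0.25, adjusted p = 0.00893) and without 12 h replicate 3 (adjusted p = 0.0458). Hspb7 had a log2 change of 0.78 ± 0.36 (adjusted p = 0.157), and without 0 h replicate 3 it was 1.41 with an adjusted p of 0.0215.

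The mitochondrial list held 5 higher and 1 lower of 15 at 12 h, where all genes gave 13.6% and 11.9%. The 5 were Lonp1, Hspa9, Clpb, Afg3l2 and Yme1l1, and the 1 was Hscb. Against 0 h, the log2 change of Hscb was -0.30 ± 0.083 at 12 h (adjusted p = 0.0143) and -0.27 ± 0.083 at 24 h (adjusted p = 0.0311). Lonp1, the ATP-dependent protease of the matrix, stood at 732, 924 and 747 CPM. It rose by 26.2% at 12 h (log2 0.34 ± 0.037, adjusted p = 8.54e-06) and fell by 19.1% from 12 to 24 h (adjusted p = 0.000222). Hspa9, the mitochondrial HSP70 that hands clients to HSP60, stood at 859, 998 and 939 CPM, with a log2 rise of 0.22 ± 0.034 at 12 h (adjusted p = 0.000209). The TRiC and prefoldin list, a chamber of the cytosol and its delivery complex, held 4 higher and 0 lower of 14 at 12 h (Tcp1, Cct6a, Cct7 and Pfdn6), with the same 13.6% and 11.9% over all genes. Tcp1, a TRiC subunit with 14.2% of its exonic bases in an opposite-strand overlap, stood at 407, 453 and 415 CPM (log2 0.15 ± 0.033 at 12 h, adjusted p = 0.00253). Pfdn6, a prefoldin subunit, stood at 37.8, 47.1 and 42.1 CPM (log2 0.32 ± 0.051 at 12 h, adjusted p = 0.000241).

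**Figure D5:**
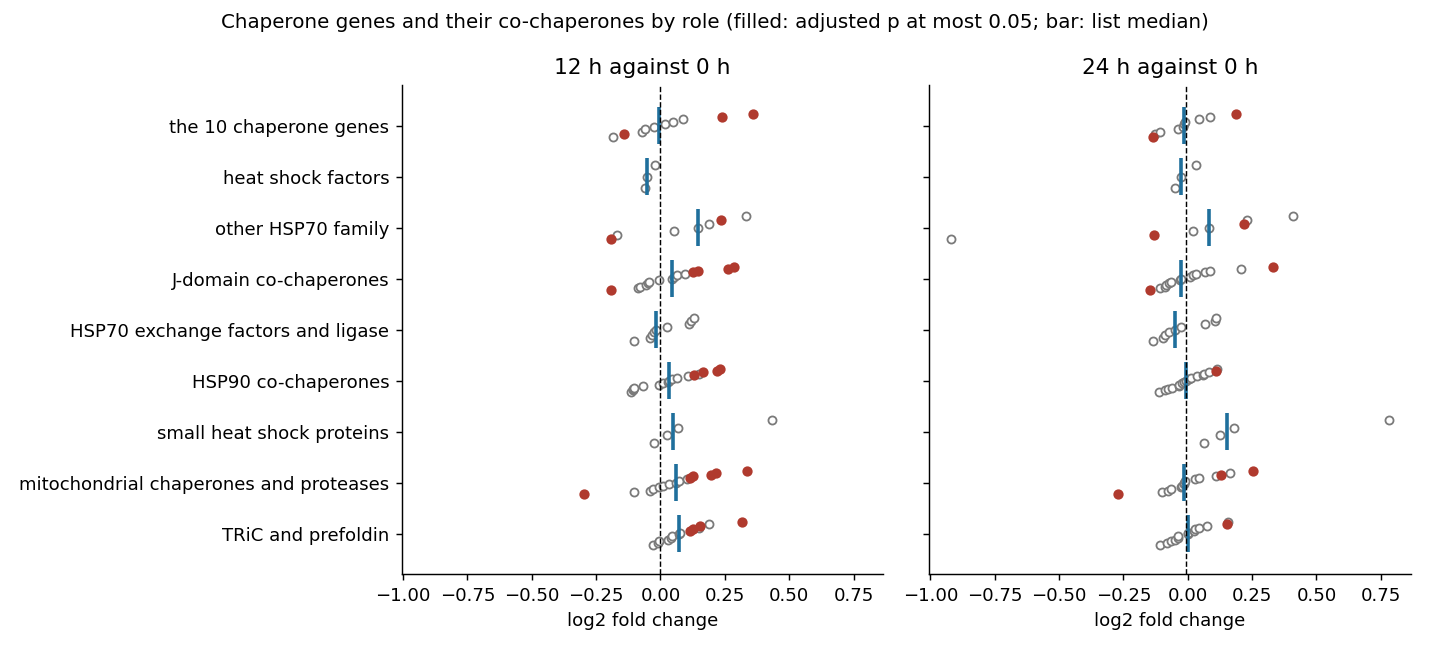
Log2 fold changes of the tested genes in each role list beside the 10 chaperones at 12 and 24 h against 0 h. Each gene is a point, each list has a bar at its median, and a dashed line marks the median of all genes tested. The medians of the 10 chaperones are -0.0044 and -0.016. Those of the role lists run from -0.053 (heat shock factors) to 0.15 (other HSP70 genes) at 12 h.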

How the data were processed

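Total RNA of MyC-CaP cells was sequenced as paired-end 150 bp mRNA libraries. The authors trimmed adaptors with Cutadapt, aligned reads with STAR to GRCm38 with a GENCODE annotation, and counted them with featureCounts. The deposited table holds raw gene counts without normalization. Strand setting and treatment of reads matching several genes are not given in the sources used here.

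Time points in the labels defined the groups. In edgeR 4.0.16 (R 4.3.3), counts were filtered with filterByExpr and scaled by TMM, and the 9 libraries were fitted together (glmQLFit, glmQLFTest). Passing means a Benjamini-Hochberg adjusted p of at most 0.05 over 11373 genes. The SE of a log2 change is its size over the root of F. DESeq2 1.42.0, other scalings, no filter, glmTreat, a replicate block and leaving out each library were tried, and the procedure was tested on simulated data. That test set requirements only for unchanged genes and for changes of 1.5-fold or more. It therefore does not vouch for changes as small as those of the chaperones. Exon lengths, overlaps and shared 150-base windows came from GENCODE vM21, not the release the authors used.

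The chaperone genes and role lists were chosen with earlier results of these data known. Of each role list, the 2 genes with the smallest p over the 3 time points are named, and genes in counts of 5 or fewer, Chordc1, the summed Hspa1a and Hspa1b and the 6 ratios were picked after values were seen. The 5 genes most correlated with the mean of the 10 chaperones, and 3 each with Hspa1a and Hspa1b, are also named. Replicates of a time point correlated at 0.995 to 0.996 on the log scale and differed beyond counting noise, so each was kept as a sample. The 12 h libraries were not uniform. Replicate 3 differed from replicates 1 and 2 with a chi-square per degree of freedom of 10.2 and 10.3, beside 4.34 between replicates 1 and 2. Without 12 h replicate 3, 879 genes passed between 12 and 24 h in place of 572. Of the marker genes examined, 1 is not reported here.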

Additional observations from a re-analysis of the deposited data

How the results depend on the processing

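Of 486 alternative values of the log2 changes of the 10 chaperones, 444 kept their direction and side of the threshold, 18 lost a call, 14 gained one and 10 changed sign. The rises of Dnajb1 and Hsp90aa1 at 12 h and of Dnajb1 at 24 h against 0 h kept their calls under every alternative but glmTreat, which tests against a 1.5-fold change and by that construction passed 0 chaperones in each comparison, and 4, 6 and 0 genes in place of 2896, 1982 and 572 (12 h against 0 h, 24 h against 0 h, 24 h against 12 h). Without a low-count filter, 950 genes passed between 12 and 24 h. Leaving out 1 library gave 3 to 4, 1 to 3 and 0 to 2 chaperones passing in these comparisons, 3 to 5 differing among the time points, and 2338 to 2763, 1323 to 2359 and 214 to 879 genes. Signs turned only in changes that did not pass, with leave-one-out ranges at 12 h against 0 h of -0.068 to 0.021 for Hsph1, -0.011 to 0.054 for Hspb1 and -0.055 to 0.021 for Hsbp1. At 24 h against 0 h they were -0.0020 to 0.10 for Hspa1a, -0.035 to 0.020 for Hspd1, -0.043 to 0.0078 for Hspe1 and -0.014 to 0.077 for Hsf2. Summed with Hspa1b, an alternative chosen after seeing the data, Hspa1a had a 24 h change of -0.011. At 24 h against 12 h the ranges were -0.0079 to 0.045 for Hspa8, -0.066 to 0.0045 for Hsbp1, -0.056 to 0.017 for Hspa14 and -0.025 to 0.024 for Bag5. The log2 ratio of Hspa1a to Hspa1b ranged from -0.083 to 0.0095 at 12 h against 0 h, and that of Hspd1 to Hspe1 from -0.028 to 0.040 at 24 h against 0 h. The replicate block passed 3, 2 and 2 chaperones and changed no call among them. Deviations from the mean of a time point correlated at -0.074 to 0.13 between same-numbered libraries and at -0.13 to 0.12 between differently numbered ones. With 3 libraries per time point, this cannot decide whether the numbers pair the samples. The replicate block passed 2956, 2039 and 609 genes. The cause of these differences was not tested. With 3 wells per time point, changes near 10% sit close to the limit of the test.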

Other observations

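Over the 9 libraries, the genes whose log2 CPM were most correlated with the mean of the 10 chaperones were Sod2, Pomgnt2, Cct3, Cndp2 and Psma7, with Pearson r from 0.925 to 0.971 among 11363 genes compared. For Hspa1a these were Fth1, Gm14443 and Kcnh2 (r of 0.975, 0.963 and 0.949), and for Hspa1b Tead3, Rnf115 and Gsap (0.971, 0.968 and 0.966). The values are the highest of many, the libraries share 3 time points, and they are given as a description only.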
